A study of Sus scrofa with 10 samples.

Results

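The axon guidance ligands and receptors described here are the 63 gene rows, of 25009 in the deposited table of the pig hypothalamus, whose name belongs to the semaphorins, plexins, neuropilins, ephrins, Eph receptors, netrins, DCC, NEO1, UNC5 receptors, Slits or Robos and whose level was estimated in both groups. They carry 60 gene symbols, 31 rows for ligands and 32 for receptors. The rule used names and estimate status, not levels. RNA came from the hypothalamus of 10 pigs of an Iberian x Landrace backcross, 5 labelled as high in growth and fatness (the high pigs) and 5 as low (the low pigs). No treatment, age or sex is given in the sources used here, and both groups share the cross and the tissue. Levels are FPKM (fragments scaled for transcript length and library size). The table gives each row a single value for each group between deposited bounds, and no value per animal, so there is no replicate check and no test across animals, and the depth behind each value is unknown.

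Axon guidance molecules steer growing nerve fibres by attraction or repulsion, and in the mature brain many of them act at synapses, on glia and on blood vessels. Semaphorins signal through plexins, for which the secreted class 3 semaphorins mostly need neuropilins as co-receptors. Ephrins, which stay on the cell surface, bind Eph receptor tyrosine kinases and can signal in both directions. Netrin-1 attracts axons through DCC and repels them through UNC5 receptors, and Slits repel through Robos. In the hypothalamus, class 3 semaphorins and neuropilins are known for guiding neurons that make gonadotropin-releasing hormone and for the wiring of appetite circuits.

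No axon guidance row differed between the groups beyond the deposited bounds, and the median difference of the members was close to that of all tested rows. Their differences spread more, with a median absolute difference in log2(FPKM + 1) of 0.23 against 0.17. Their mean levels were lower, with a median of 4.83 against 7.40 FPKM, and the spread was not compared at like levels. A comparison required an average level of 1 FPKM or more, which 52 rows met and 11 did not. The deposited bounds of the groups overlapped for all 52 rows (0.458% of all tested rows had bounds that did not overlap), and by a z value built from the bounds 0 rows passed (background 0.211%). A group ratio of at least 1.5 was reached by 8 rows, or 15.4%, against 9.96% of all tested rows. These 8 were 5 with the higher value in low pigs (background 6.71%) and 3 with the higher value in high pigs (background 3.25%). After median-of-ratios scaling the split was 4 and 4.

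Rows past that ratio lay mostly at low levels, where ratios spread more in the whole table as well. Between a mean of 1 and 5 FPKM, 7 of 28 rows reached it, or 25%, against 14.4% of all rows at that level. At 5 FPKM or more it was 1 of 24 rows, or 4.17%, against 7.32%.

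The differences, given throughout as log2(FPKM + 1) in high pigs minus low pigs, had a median of -0.09 over the 52 rows and of -0.10 over all 15281 tested rows. This scale understates the change of low genes. The value was higher in low pigs for 30 rows, or 57.7%, against 67.7% of all tested rows. For the 27 tested ligand rows the median was -0.13, with 18 higher in low pigs, and for the 25 tested receptor rows it was 0.0019, with 12 higher in low pigs. The middle part of the members, from the lower to the upper quartile, ran from -0.25 to 0.20, and that of all rows from -0.25 to 0.05.

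**Figure D1:**
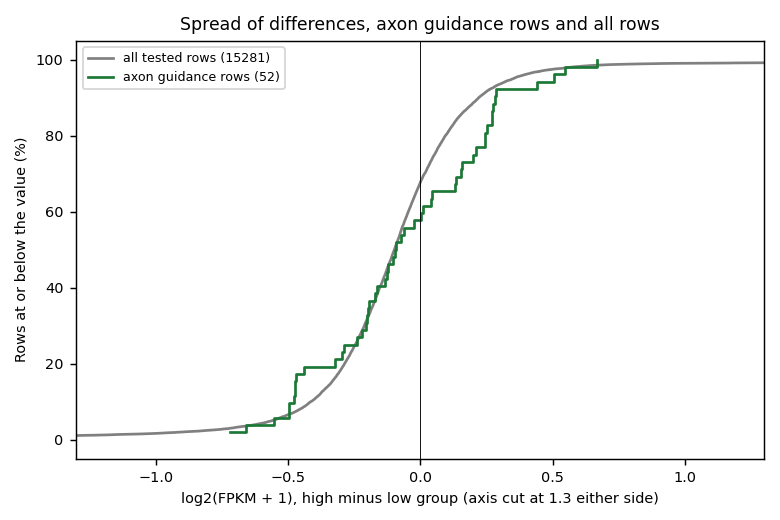
The horizontal axis is the difference in log2(FPKM + 1), high minus low group, and the vertical axis the percentage of rows at or below it, for the 52 axon guidance rows (green) and all 15281 tested rows (grey). The curves cross near their medians of -0.09 and -0.10, and the green curve lies lower between 0 and 0.25.

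Levels covered a wide range. EFNB3, the membrane-spanning ephrin-B3 that acts as a midline barrier to axons, had the highest level, 36.5 FPKM (bounds 26.2 to 46.7) in high pigs and 30.6 (19.0 to 42.2) in low pigs. SEMA4D, a membrane semaphorin of oligodendrocytes and immune cells that binds plexin-B1, followed at 16.4 (11.7 to 21.0) and 18.5 FPKM (12.2 to 24.7). NEO1, neogenin, a receptor for netrins and repulsive guidance molecules, was the highest receptor. Of 63 rows, 11 had a mean of 10 FPKM or more (17.5%, against 24.9% of all rows with an estimate). EFNB3 had bounds apart from the next row, SEMA4D, in high pigs but not in low pigs. From SEMA4D down through NEO1, EPHB1, SLIT1, SEMA7A, SEMA6D, PLXNC1, SLIT2 and EFNA5 to SEMA6A, neighbours in order of mean level had overlapping bounds in both groups, so the order of neighbours is not resolved.

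**Figure D2:**
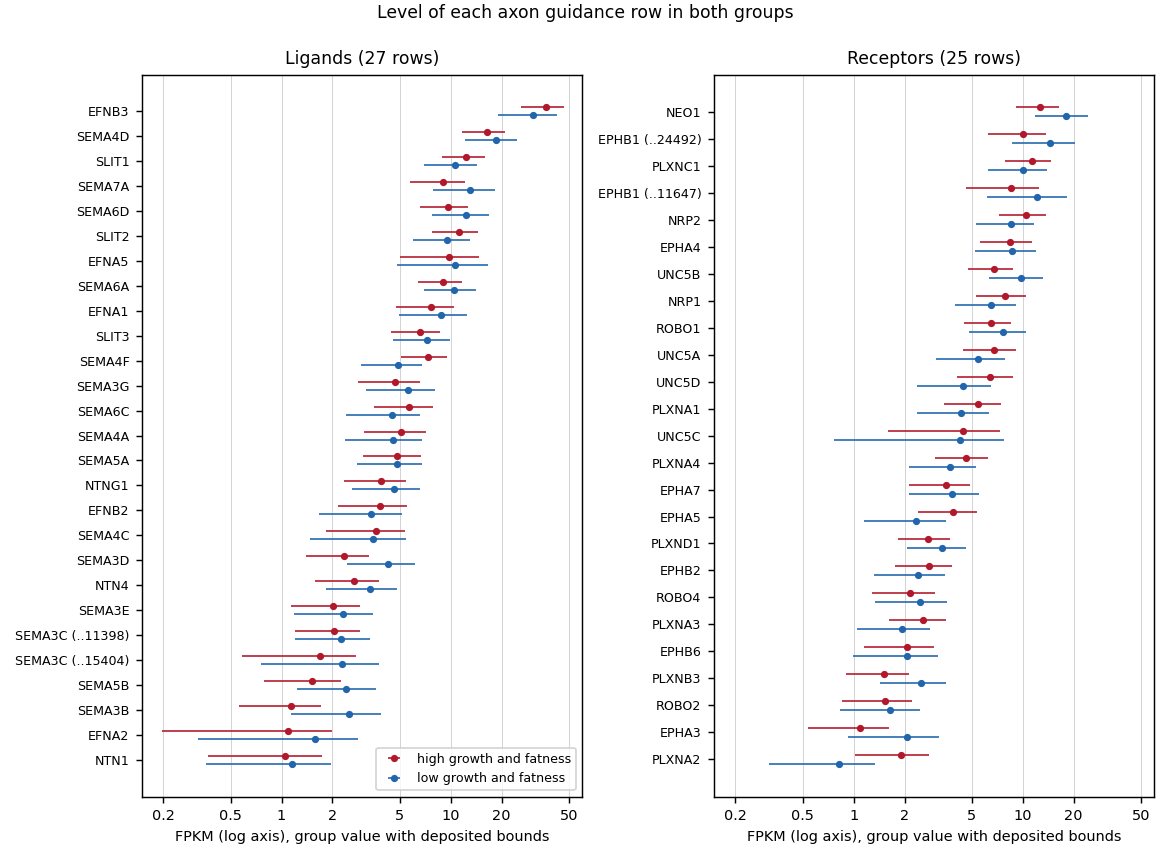
Group values (points) and deposited bounds (lines) on a log FPKM axis for the 27 ligand rows and 25 receptor rows that reached 1 FPKM on average, with the high group in red and the low group in blue. Rows of a gene with several rows carry the last digits of their identifier. In every row the red and the blue lines overlap, and EFNB3 stands highest.

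Class 3 semaphorins, the secreted repellents, had the higher value in low pigs in all 6 rows, with a median difference of -0.25. Of all tested rows 67.7% had the higher value in low pigs. A SEMA3A row outside these 6, described below, was nearly level. SEMA3B was at 1.13 FPKM (0.559 to 1.70) in high pigs and 2.51 (1.14 to 3.88) in low pigs, a ratio of 2.22. SEMA3D was at 2.35 (1.40 to 3.30) and 4.28 FPKM (2.43 to 6.13), a ratio of 1.82. Both low-group values lay above the upper bound of the high group, while the bounds still overlapped. In 40 of the 52 tested rows the low-group value lay inside the high-group bounds. The share over all rows was not counted, so this count does not show whether the members differ from other rows. The other class 3 rows differed less. SEMA3G, known from blood vessel endothelium, was at 4.70 (2.85 to 6.54) and 5.63 FPKM (3.15 to 8.11), and SEMA3E, which binds plexin-D1 without a neuropilin, at 2.03 (1.14 to 2.91) and 2.32 FPKM (1.18 to 3.45). All 6 rows kept this direction after median-of-ratios scaling and quantile normalization, when their medians were -0.17 and -0.20.

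The identity of one class 3 row is uncertain. The file names SEMA3C on rows of chromosomes 9 and 13, and the reference table of identifiers calls the chromosome 13 row (35820305 to 35849844, build Sscrofa10.2) SEMA3F. That row was at 2.05 (1.2 to 2.90) and 2.25 FPKM (1.2 to 3.31). The chromosome 9 row (109601470 to 109716061) was at 1.68 (0.586 to 2.77) and 2.27 FPKM (0.758 to 3.78). An unnamed row beside it, which the reference table also calls SEMA3C, was at 1.99 and 2.90 FPKM, so both pieces of that gene had the higher value in low pigs. SEMA3A, the best-known axon repellent of the class, has no row by name in the file. The row that the reference table gives for it was at 1.27 (0.564 to 1.98) and 1.23 FPKM (0.469 to 1.99), nearly level.

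Neuropilins and class A plexins, through which most class 3 semaphorins signal, had the higher value in high pigs, whereas PLXND1, the receptor of SEMA3E, had the lower one (2.76 against 3.34 FPKM). NRP2 was at 10.5 FPKM (7.26 to 13.7) in high pigs and 8.49 (5.31 to 11.7) in low pigs. NRP1, which also binds vascular endothelial growth factor, was at 7.90 (5.31 to 10.5) and 6.52 FPKM (3.96 to 9.07). Differences of the neuropilins were 0.27 and 0.24, inside the bounds of both groups. All 4 class A plexins, the signalling part of the receptor, pointed the same way, with a median of 0.28. Of all tested rows 32.3% had the higher value in high pigs. PLXNA1 was at 5.45 (3.41 to 7.48) and 4.34 FPKM (2.36 to 6.32), PLXNA3 at 2.57 (1.62 to 3.52) and 1.94 FPKM (1.05 to 2.82), and PLXNA4 at 4.60 (3.02 to 6.19) and 3.71 FPKM (2.13 to 5.28).

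PLXNA2 had the largest difference of the 52 rows towards high pigs, 0.67. It was at 1.90 FPKM (1.02 to 2.77) in high pigs and 0.825 (0.314 to 1.34) in low pigs, a ratio of 2.30. The file places it on chromosome 9 (147877835 to 148015289), and a second, unnamed row on that chromosome (148127165 to 148333069) is also PLXNA2 in the reference table. That row was at 3.84 (2.67 to 5.0) and 2.76 FPKM (1.71 to 3.81), a ratio of 1.39. The gene may be split in this annotation, so its level is uncertain, and the larger ratio belongs to the less abundant piece. Neuropilins and class A plexins kept their direction in every row after both scalings. Median-of-ratios scaling raised all high-group values and lowered all low-group values by a common factor, so it could not have turned these rows. Their medians after it, 0.36 and 0.37, include that shift. Quantile normalization also moved these rows towards high pigs. Within a group the 6 ligand rows summed to 13.9 FPKM (high) and 19.3 FPKM (low), and the 4 class A plexin rows to 14.5 and 10.8 FPKM. These sums leave out the more abundant PLXNA2 piece, the unnamed SEMA3C piece and the SEMA3A row. The ligand and receptor rows were singled out after their values were seen, without PLXND1, and their opposite direction was not tested.

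**Figure D3:**
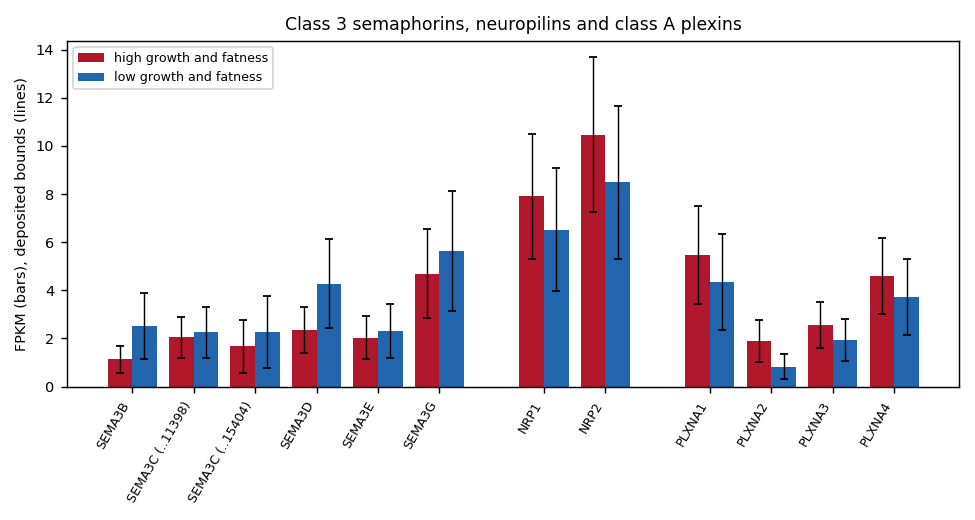
Bars are FPKM values of the high group (red) and the low group (blue) and lines are the deposited bounds, for 6 class 3 semaphorin rows, 2 neuropilins and 4 class A plexins. Blue bars are taller in all semaphorin rows and red bars in all neuropilin and class A plexin rows, while every pair of lines overlaps.

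Markers of several other cell types had lower values in high pigs as well. Of 12 fibroblast, mural cell and meningeal markers, 11 were tested and all 11 were lower in high pigs, with a median of -1.29 and a summed level of 120 against 309 FPKM. The exception to testing was COL6A3, below 1 FPKM, and none of the 12 was at 0. Oligodendrocyte markers summed to 3108 against 4832 FPKM (11 of 11 tested lower, median -0.64), endothelial markers to 37.4 against 46.4 FPKM (6 of 6 lower) and neuronal markers to 2036 against 2177 FPKM (6 of 8 lower, or 75%, median -0.17). Of all tested rows 67.7% were lower in high pigs, and the neuronal share is near that. The neuronal median turned to 0.06, with 2 of 8 lower, after quantile normalization, while the fibroblast, oligodendrocyte and endothelial counts stayed the same under both scalings. Their part in the differences of guidance genes was not tested. In bulk tissue, fewer cells of a type and less RNA per cell cannot be told apart. Peptide genes of the labelled tissue were present. AVP, OXT, POMC, PMCH, AGRP, NPY, HCRT, CARTPT, SST and TRH were all above 1 FPKM in both groups, from 1.78 to 472 FPKM. POMC, AGRP and NPY had the lower value in high pigs, and the other peptide genes had the higher value there. Anterior pituitary markers were present as well and uneven. The 7 matched summed to 303 against 640 FPKM, and all 4 tested were lower in high pigs (median -1.24). PRL, the highest, was at 279 (174 to 384) and 570 FPKM (102 to 1039). Their part in the differences of guidance genes was not tested either.

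The semaphorins of classes 4 to 7, bound to the cell membrane, showed no common direction, with 5 of 10 rows higher in each group. SEMA4F, a transmembrane semaphorin, was at 7.30 FPKM (5.09 to 9.51) in high pigs and 4.85 (2.96 to 6.74) in low pigs. Its ratio of 1.51 was only just past the threshold, though it was the 1 row at a mean of 5 FPKM or more to pass. SEMA5B, which carries thrombospondin repeats, was at 1.51 (0.790 to 2.24) and 2.41 FPKM (1.23 to 3.60), a ratio of 1.59, which was 1.47 after median-of-ratios scaling. SEMA7A, a lipid-anchored semaphorin that binds plexin-C1, lay just below the threshold with a ratio of 1.46, at 8.97 (5.71 to 12.2) and 13.1 FPKM (7.91 to 18.2). The relative SEMA5A was level at 4.84 and 4.81 FPKM. Class 6 members SEMA6A and SEMA6D, which bind class A plexins, were at 9.06 against 10.5 and 9.64 against 12.3 FPKM, and SEMA6C at 5.70 against 4.49 FPKM. SEMA4A was at 5.10 against 4.56 FPKM and SEMA4C, a ligand of plexin-B2, at 3.60 against 3.47 FPKM. The locus of SEMA4C overlaps those of other genes, so reads may be shared there. Of the 63 rows, 9 overlap other rows, among them also SEMA5B, PLXNC1, the longer EPHB1 row, SLIT3 and ROBO1.

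Other plexins differed among themselves. PLXNB3, a receptor for SEMA5A, was at 1.51 FPKM (0.901 to 2.12) in high pigs and 2.49 (1.44 to 3.54) in low pigs, a ratio of 1.65. PLXNC1, the receptor of SEMA7A, had the highest mean level of the plexin rows, at 11.3 (7.89 to 14.8) and 10.1 FPKM (6.25 to 13.9). These bounds overlapped those of the PLXNB1 row given below in both groups. The difference of PLXNC1, 0.16, is opposite in sign to that of SEMA7A, -0.50, and neither passed the ratio. PLXND1, which also acts in blood vessels, had a difference of -0.21.

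Ephrins did not reach the ratio in any of 5 tested rows, too few to set against the 9.96% of all tested rows that did. Both ephrin-B rows had the higher value in high pigs, as did 32.3% of all tested rows, with overlapping bounds. EFNB3 is given above, and EFNB2, a mark of arterial endothelium, was at 3.82 (2.15 to 5.50) and 3.40 FPKM (1.67 to 5.13). The 3 tested rows of the lipid-anchored ephrin-A genes had the lower value in high pigs, as did 67.7% of all tested rows. EFNA5, which forms gradients in topographic maps, was at 9.84 and 10.7 FPKM, EFNA1 at 7.63 and 8.72 FPKM, and EFNA2 at 1.10 and 1.58 FPKM. EFNA5 turned to 0.0016 after median-of-ratios scaling and to 0.0031 after quantile normalization, so it is level. EFNA4 was below the filter, at 0.0639 and 0.135 FPKM.

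Of 8 tested Eph receptor rows, 2 passed the ratio, EPHA3 and EPHA5, in opposite directions. That was 25%, against 9.96% of all tested rows and 14.4% of those between 1 and 5 FPKM, where both rows lay. With 8 rows these shares cannot be told apart. EPHA5, a receptor of ephrin-A ligands in brain neurons, was at 3.86 FPKM (2.40 to 5.33) in high pigs and 2.33 (1.15 to 3.52) in low pigs, a ratio of 1.66. EPHA3, of the same class, was at 1.09 (0.541 to 1.63) and 2.06 FPKM (0.925 to 3.19), a ratio of 1.90 towards low pigs. EPHA4, which binds ephrins of both classes and has the highest mean level of the EphA rows, was level at 8.46 (5.57 to 11.3) and 8.62 FPKM (5.18 to 12.05). EPHA7 was at 3.52 and 3.82 FPKM. EPHA4 and EPHA7 changed sign after median-of-ratios scaling, to 0.08 and 0.00054.

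EPHB1, a receptor of ephrin-B ligands, had the highest mean level of the Eph genes, with bounds that overlapped those of EPHA4 in both groups. It has 2 rows on chromosome 13, of 97.4 kb and 1.13 kb. The longer row was at 9.98 FPKM (6.23 to 13.7) in high pigs and 14.5 (8.61 to 20.4) in low pigs. The shorter was at 8.52 (4.60 to 12.4) and 12.2 FPKM (6.16 to 18.3). Both rows gave nearly the same ratio, 1.45 and 1.43, and are not independent genes. EPHB2, which acts at excitatory synapses, was at 2.78 and 2.39 FPKM, and EPHB6, whose kinase domain is inactive, was level at 2.07 and 2.07 FPKM. The remaining 6 Eph rows stayed below 1 FPKM: EPHA1, EPHA2, EPHA8, EPHB4 and both EPHB3 rows.

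Netrins were low, with all 3 tested rows higher in low pigs, as were 67.7% of all tested rows. None passed the ratio, which 9.96% of all tested rows did. NTNG1, a lipid-anchored netrin-G that binds the synaptic protein of LRRC4C, was the highest, at 3.88 (2.35 to 5.41) and 4.60 FPKM (2.59 to 6.61). LRRC4C itself was at 11.2 and 11.7 FPKM. NTN4, found in basement membranes, was at 2.67 and 3.33 FPKM. NTN1, the classic attractant, was at 1.05 (0.367 to 1.73) and 1.15 FPKM (0.356 to 1.95) in a row of only 1.07 kb, so this level may rest on a fragment of the gene. NTN3, NTN5 and NTNG2 were below 1 FPKM.

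The netrin receptors, with mean levels from 4.36 to 15.4 FPKM, split by member. NEO1 was at 12.7 FPKM (9.11 to 16.3) in high pigs and 18.1 (11.9 to 24.3) in low pigs, a ratio of 1.42. UNC5B, a repulsive netrin receptor also found in vessels, was at 6.74 (4.72 to 8.76) and 9.73 FPKM (6.34 to 13.1), a ratio of 1.44. Each low-group value lay above the upper bound of the high group, while each high-group value lay inside the bounds of the low group. UNC5D went the other way with a ratio of 1.44, at 6.39 (4.06 to 8.71) and 4.44 FPKM (2.35 to 6.52), and reached 1.56 after median-of-ratios scaling and 1.53 after quantile normalization. UNC5A was at 6.79 and 5.46 FPKM, and UNC5C at 4.44 and 4.27 FPKM with wide bounds in a locus that overlaps BMPR1B. DCC had no row with an estimate under its name or its reference name, so it was not analysed here.

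None of the 6 tested Slit and Robo rows passed the ratio, too few to set against the 9.96% of all tested rows that did. SLIT1 was at 12.4 (8.88 to 15.9) and 10.6 FPKM (6.95 to 14.3), SLIT2 at 11.2 (7.80 to 14.6) and 9.53 FPKM (6.0 to 13.1), and SLIT3 at 6.55 (4.45 to 8.65) and 7.21 FPKM (4.54 to 9.88). Mean levels of the Slits ran from 6.88 to 11.5 FPKM and those of the Robos from 0.818 to 7.07 FPKM. ROBO1 was at 6.52 (4.49 to 8.54) and 7.62 FPKM (4.82 to 10.4), and ROBO2 at 1.53 (0.858 to 2.21) and 1.64 FPKM (0.827 to 2.46), with a difference of -0.06 that became 0.01 after median-of-ratios scaling. ROBO4, an endothelial Robo, was at 2.16 and 2.45 FPKM. ROBO3, which lets commissural axons cross the midline, was below the filter, at 1.12 (0.599 to 1.65) and 0.513 FPKM (0.2 to 0.827). Its ratio was 2.19 with overlapping bounds, and ROBO4, 2.07 kb away on chromosome 9, differed by -0.13.

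**Figure D4:**
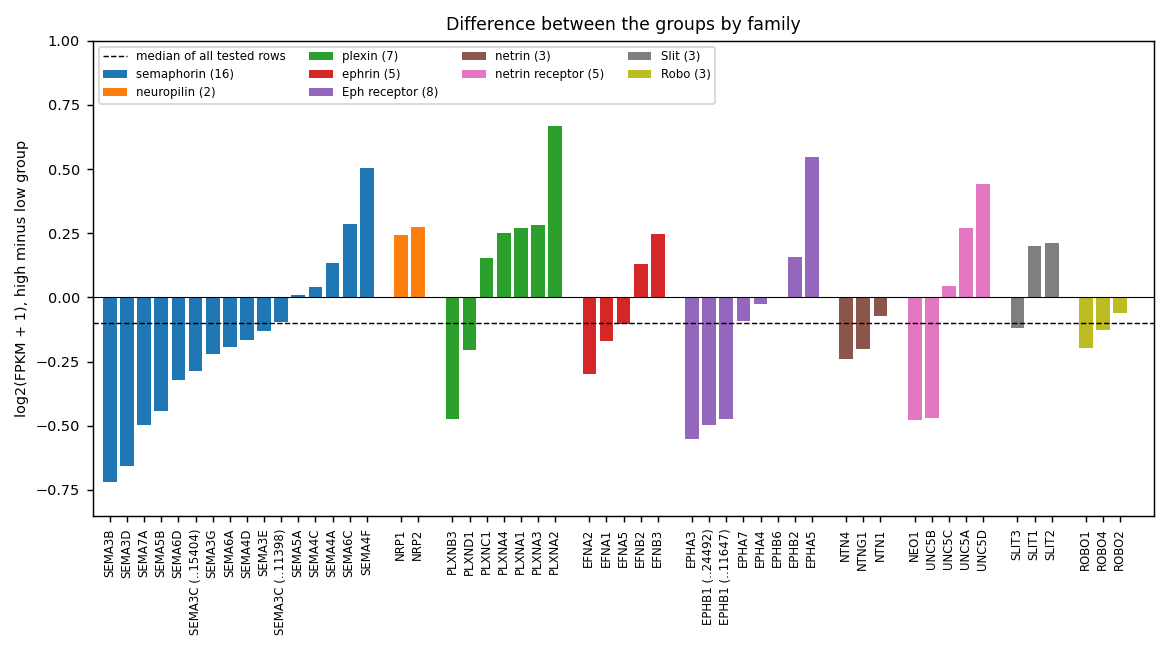
Bars are the differences in log2(FPKM + 1), high minus low group, of the 52 tested rows, sorted within 9 families. The dashed line is the median of all tested rows, -0.10. SEMA3B and PLXNA2 are the extremes at -0.72 and 0.67, and plexins, Eph and netrin receptors hold rows on both sides of 0.

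Genes that act downstream of or beside these families also had overlapping bounds in every tested row, and a smaller share of rows past the ratio than the 9.96% of all tested rows (7.32% at 5 FPKM or more). Of 61 intracellular effectors of guidance receptors on a list chosen for the pathway, 56 were matched and 55 tested, with a median of -0.14. The ratio was passed by 1 of these, or 1.82%: FARP2, an exchange factor for small GTPases that acts below plexins, at 2.43 FPKM (0.873 to 4.0) in high pigs and 1.47 (0.319 to 2.63) in low pigs. The most abundant were CFL1, the actin-severing cofilin, at 818 and 1056 FPKM, the GTPase CDC42 at 189 and 230 FPKM, and DPYSL2, a collapsin response mediator of semaphorin signals, at 142 and 173 FPKM. Of 43 other guidance cues and receptors, 34 were tested, with a median of 0.01 and 2, or 5.88%, past the ratio: PTPRF, a receptor phosphatase (2.48 and 1.47 FPKM), and the myelin protein MAG (47.7 and 73.7 FPKM), which is also on the oligodendrocyte list.

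What the bounds could show was limited. Half-widths of the tested members had a median of 38.0% of the level in high pigs and 44.0% in low pigs. With these widths the groups would have to differ by a ratio of 2.39 in the median row, and by 1.88 at the least, for the bounds to come apart, so smaller differences could not be seen by that rule.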

How the data were processed

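Total RNA was taken with a RiboPure kit and paired-end libraries of 300 bp fragments came from Illumina's TruSeq RNA kit and shared sequencing lanes, per the labels' protocols. Cufflinks 2.0.2, TopHat2 2.0.5 with Bowtie2, and the trimming and quality tools Trim Galore, FastQC and CASAVA appear in the submitters' processing notes with build Sscrofa10.2 and without settings. Per the file headers, the authors deposited a single FPKM for each row and group, its bounds and an estimate status. The confidence level of the bounds and the depth of each library are not given in the sources used here.

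Rows with an estimate in both groups (58 of 25009 rows had none) and a mean of at least 1 FPKM were compared as log2(FPKM + 1). No test across animals was possible, so rows were described by a ratio of at least 1.5 and by bounds that do not overlap, each over all 15281 rows. A z value of the bounds, with each half-width as 2 SD and Benjamini-Hochberg adjustment at 0.05, was an alternative. The calculations were tested on simulated data. Python 3.11.15, numpy 2.4.6, pandas 2.3.3 and scipy 1.17.1 were used. Starts were raised by 1, since 8 rows start at 0. Of the 63 names, 55 matched the reference table, 7 had no entry and 1 differed. Of 72 symbols of the rule in the RefSeq table of assembly Sscrofa11.1, 12 were not members. Among them SEMA3A, EFNA3, PLXNB1 and SEMA4G have rows by identifier only. SEMA3F is the reference name of the chromosome 13 row that is a member as SEMA3C. DCC, EFNB1, EPHA6, EPHA10, PLXNB2, SEMA4B and SEMA6B had no row with an estimate under either name and were not analysed here.

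Named with bounds were members past the ratio, the highest of each family and a fixed set of class 3 semaphorins, neuropilins, class A plexins, netrin and Slit genes and their receptors. Members, lists and rules were chosen with earlier results of these data known. Marker lists not named in the text had these medians: astrocytes -0.23, oligodendrocyte precursors -0.52, microglia -0.52 and ependyma and choroid plexus -0.18.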

Additional observations from a re-analysis of the deposited data

How the results depend on the processing

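The 8 rows past a ratio of 1.5 became 1 (SEMA4F) with a filter at 5 FPKM, which left fewer rows, and 2 (SEMA3B and PLXNA2) at a ratio of at least 2. At a ratio of 2 the share of members was 3.85% and that of all rows 3.76%. The rows past 1.5 were 12 without a filter, or 19% against 34.1% of all rows, 8 after median-of-ratios scaling (7 of them shared, with UNC5D in place of SEMA5B) and 9 after quantile normalization (all 8, with UNC5D). With 1 row per symbol on placed chromosomes, or with the 6 rows that the reference table names (an alternative chosen after seeing the data), the count was 8. At a ratio of 1.5 the share of members stayed above that of all rows after median-of-ratios scaling (15.4% against 9.45%) and quantile normalization (17.3% against 9.17%). It also stayed above with 1 row per symbol (17% against 9.68%) and with the reference rows (13.8% against 9.96%). It was not above with a filter at 5 FPKM (4.17% against 7.32%) or without a filter. Without a filter, all rows include 9670 below a mean of 1 FPKM, so the shares are not alike. At a ratio of 2 both shares were nearly equal, with only 2 members. The count of rows with bounds that do not overlap was 0 under each of these filters, scalings and row choices, and 0 by the z value of the bounds, where 3 of 52 rows, or 5.77%, had an absolute z above 2 against 2.01% of all rows. The median difference ran from -0.12 (pseudocount 0.1) to -0.0052 (median-of-ratios scaling), a scaling that moved the median of all rows from -0.10 to 0.00073. Of the 52 rows, ROBO2, EPHA7, EPHA4 and EFNA5 changed sign after median-of-ratios scaling, ROBO2 to 0.011, and the last 2 of these also after quantile normalization. No paired analysis was possible because values stand for whole groups, and leaving out a replicate was not run for the same reason. Library depth is unknown, and its effect was not measured.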

Other observations

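Besides SEMA3A, given above, rows outside the naming rule add 3 genes by identifier alone. PLXNB1, the receptor of SEMA4D, was at 6.95 FPKM (4.19 to 9.71) in high pigs and 6.0 (3.18 to 8.83) in low pigs, in a row on chromosome 13. EFNA3, an ephrin-A between EFNA1 and EFNA4 on chromosome 4, was at 4.83 (2.35 to 7.30) and 5.12 FPKM (2.19 to 8.05). SEMA4G was at 2.96 (1.77 to 4.14) and 2.44 FPKM (1.28 to 3.60). Bounds of the groups overlapped for all 3.

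Of the 63 rows, 13 lie on chromosome 13. SEMA3B lies 71.3 kb from the row named SEMA3C there, and their differences were -0.72 and -0.09. ROBO1 and ROBO2 are 808 kb apart and differed by -0.20 and -0.06.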
